A study of Homo sapiens with 10 samples.

Results

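To ask how genes that report Wnt signalling behave when DNMT1 is reduced, RNA levels of 10 Wnt target and colon stem cell genes were compared between HCT116 and DNMT1 KO cells. The 10 genes are LGR5, ASCL2, AXIN2, NKD1, RNF43, ZNRF3, LEF1, TCF7, EPHB2 and SP5. They were picked by name, as genes commonly used to read out Wnt activity and the stem cell state of the colon crypt, out of 58884 genes in the count tables. The choice was made with earlier results of these data known. HCT116 is a human colorectal carcinoma line, here without a change at DNMT1 (labelled WT), and 6 libraries were used. DNMT1 KO is a derivative of this line with 4 libraries. By the study's account it is a hypomorphic line with a truncated DNMT1 protein left, so it models reduced and not absent DNMT1, and any other change the derived line has picked up cannot be told apart from the loss of DNMT1. Both lines were grown in the same medium without treatment, and the study describes the replicates as independent cultures. These were bulk samples, in which fewer cells of a type and less RNA per cell cannot be told apart.

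Wnt ligands bind Frizzled and LRP receptors and keep β-catenin from being degraded by the AXIN and APC complex. β-catenin then enters the nucleus, joins TCF and LEF factors and switches on targets, many of which feed back on the pathway: AXIN2 and NKD1 inside the cell, and RNF43 and ZNRF3 at the membrane, all lower signalling. In the colon crypt this programme marks the stem cells at the base, and HCT116 cells carry a stabilising mutation of the β-catenin gene CTNNB1, so the pathway is active in them without a ligand.

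SP5 and RNF43 showed the largest rise and the largest fall of the tested members, and their promoters are shown for the letters that lie at the start of each gene. Windows run from 250 bases before to 50 after a RefSeq start (GRCh38.p14), and a window was held for 5 of the 10 genes: RNF43, LEF1, TCF7, EPHB2 and SP5. The SP5 window is chr2:170715087-170715386 on the plus strand, with the letters of the TCF/LEF motif in capitals, and the RNF43 window is chr17:58417485-58417784 on the minus strand, with CG dinucleotides in capitals.
SP5: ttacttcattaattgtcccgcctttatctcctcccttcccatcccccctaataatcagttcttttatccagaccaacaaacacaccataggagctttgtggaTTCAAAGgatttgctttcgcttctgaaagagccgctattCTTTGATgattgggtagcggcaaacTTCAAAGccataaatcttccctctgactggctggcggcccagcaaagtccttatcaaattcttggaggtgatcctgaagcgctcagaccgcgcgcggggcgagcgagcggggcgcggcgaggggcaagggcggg
RNF43: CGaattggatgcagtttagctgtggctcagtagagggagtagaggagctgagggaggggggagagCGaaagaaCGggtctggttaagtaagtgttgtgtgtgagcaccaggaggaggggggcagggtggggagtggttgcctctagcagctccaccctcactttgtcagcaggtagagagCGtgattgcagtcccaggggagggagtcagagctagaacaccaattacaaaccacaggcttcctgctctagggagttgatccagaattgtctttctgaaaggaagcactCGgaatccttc
The motif was searched as CTTTGNN with A or T at each N, on both strands. SP5 held 3 matches, from 148 to 78 bases before its start, and 0.180% of 35097 windows of this length held 3 or more, while 13.7% held any. TCF7 held 1 match in 1 of its 2 windows, and RNF43, LEF1 and EPHB2 held none. CG dinucleotides numbered 17 in the SP5 window and 5 in the RNF43 window shown, against 0 in a second RNF43 window and a median of 14 over all windows. The EPHB2 windows held 49 and 48, and TCF7 25 and 3. A match is a description of the letters, and no binding or methylation was measured at these windows here.

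Library totals ran from 26700853 to 85991812 counts. DNMT1, the check of the labels, lay between 89.8 and 263 CPM (read counts relative to the TMM-scaled library total), median 135 CPM, in HCT116 and at 14.1, 19.9, 21.5 and 22.3 CPM in DNMT1 KO, a log2 fold change of -2.97 (SE 0.33, adjusted p = 1.74e-05, edgeR). The groups did not overlap. The labels give 4 batches. Batch 1 holds replicate 1 of each line, batch 2 replicates 2 and 3 of each, batch 3 DNMT1 KO replicate 4 alone and batch 4 HCT116 replicates 7, 8 and 9 alone, so outside batches 1 and 2 batch and line cannot be told apart. DNMT1 KO replicate 4 stood apart in its low counts: 39.9% of its counts from 1 to 10 were even numbers, against 64.4 to 70.0% in the other 9 libraries. Without this library the same number of members was called in each direction. Of the line markers, the epithelial genes EPCAM, CDH1, KRT8 and KRT18 were called lower in DNMT1 KO, at log2 fold changes of -2.08, -3.67, -2.69 and -2.29. VIL1 was called higher at 5.47, on 4 counts in HCT116 and 117 in DNMT1 KO. KRT19 did not pass at -1.06 (adjusted p = 0.076, edgeR), nor did the intestinal factor CDX2 at 0.23 (adjusted p = 0.60).

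Of the 10 genes, 7 had enough counts to be tested. Calls needed a log2 change beyond 1 in size together with an adjusted p below 0.05. SP5 and NKD1 were called higher in DNMT1 KO and RNF43 was called lower, against 7.42% and 6.49% of all 19279 genes tested called higher and lower. AXIN2, ZNRF3, TCF7 and EPHB2 were not called, and LGR5, ASCL2 and LEF1 had too few counts to enter this fit. A fit with no filter tested all 10 and called the same 2 higher and 1 lower. Groups did not overlap for 3 of the 7 (SP5, NKD1 and RNF43), against 15.2% of all genes tested. RNF43 had few counts in DNMT1 KO and passed the filter through HCT116. The filter thus partly sets how many members were called lower or did not overlap, and no result is drawn from those shares. The median log2 fold change of all genes was -0.07, and 0.14 with library totals alone, a shift the members' values carry too.

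**Figure D1:**
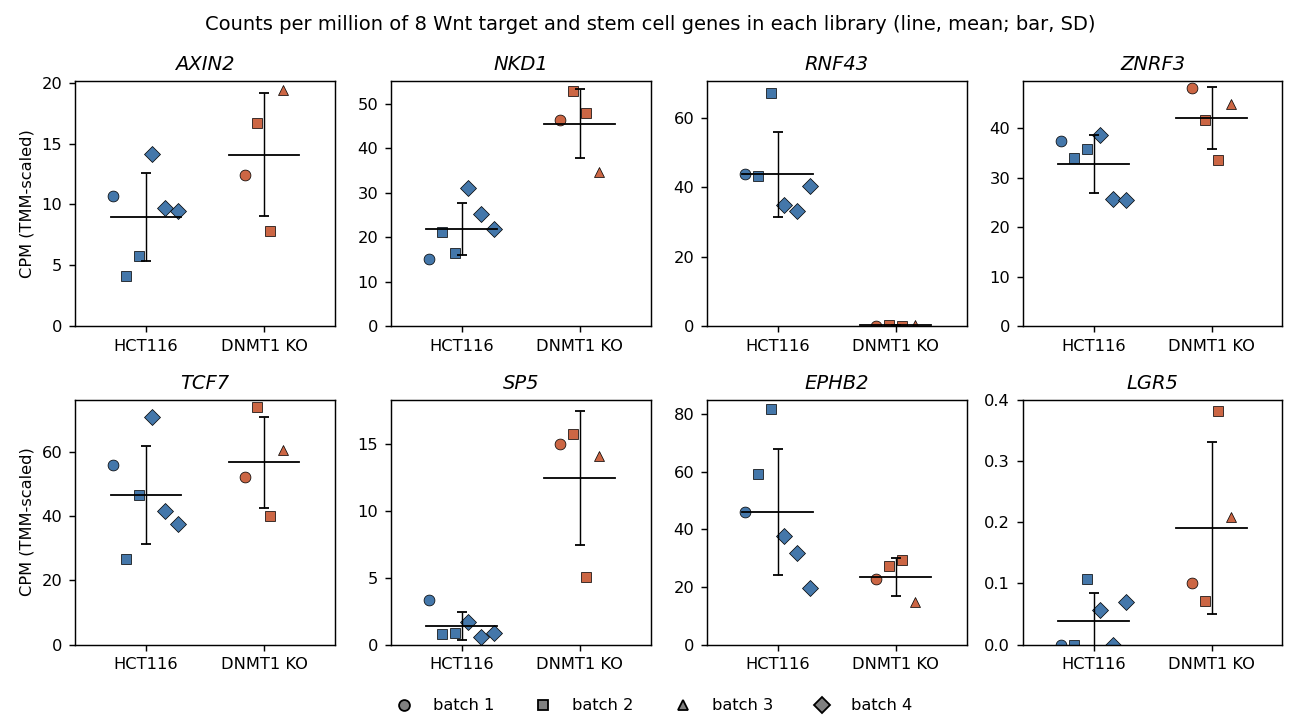
CPM of 8 genes in each library, with HCT116 in blue and DNMT1 KO in orange, marker shape giving the batch, the line the mean and the bar the SD (n = 6 and 4). RNF43 sits near 0 in all 4 DNMT1 KO libraries, and NKD1 and SP5 sit higher there than in any HCT116 library.

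AXIN2 and NKD1 act as feedback regulators inside the cell. AXIN2, a scaffold of the complex that degrades β-catenin and a direct Wnt target (chr17:65528563-65561648), was at 12.4, 16.7, 7.82 and 19.4 CPM in DNMT1 KO replicates 1 to 4. In HCT116 it ran from 4.10 to 14.2 CPM with a median of 9.57 CPM. DNMT1 KO was 0.65 higher on the log2 scale (SE 0.35), and the groups overlapped through DNMT1 KO replicates 1 and 3. The difference did not pass the test (adjusted p = 0.25, edgeR). AXIN2 shares 25.2% of its exonic bases with ENSG00000266076, which held 2 counts in all libraries together. Reads in the shared bases are left uncounted for both genes by the counter's default, so the AXIN2 level rests on the rest of its exons. NKD1 (chr16:50548396-50649249) makes a protein that binds Dishevelled and dampens the signal. Its level was 46.3, 52.9, 48.0 and 34.6 CPM in DNMT1 KO, and from 15.2 to 31.1 CPM, median 21.4 CPM, in HCT116. Every DNMT1 KO library lay above every HCT116 library, a change of 1.06 on the log2 scale (SE 0.24, adjusted p = 0.0063, edgeR), or 2.09-fold. NKD1 sat close to the fold limit: without DNMT1 KO replicate 2 its log2 change was 0.98 and it was not called, although its adjusted p stayed under 0.05 at 0.029. A fit that included batch gave 1.49 (adjusted p = 0.00069), and within batch 2 alone 1.43 (adjusted p = 0.041).

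At the membrane, RNF43 and ZNRF3 are sister ubiquitin ligases that mark Frizzled receptors for removal. RNF43 (chr17:58353676-58417595) ran from 33.2 to 67.1 CPM in HCT116 with a median of 41.7 CPM. In DNMT1 KO it was at 0, 0.338, 0.0952 and 0.243 CPM, which are 0, 19, 6 and 7 counts, against 1410 to 3470 counts per HCT116 library. The groups were far apart, with a log2 change of -7.99 (SE 0.62, adjusted p = 4.89e-07, edgeR), and the mean was 258-fold higher in HCT116. In batch 1 the libraries held 1410 and 0 counts, and in batch 2 alone the log2 change was -7.99 (adjusted p = 0.0016). RNF43 shares 73.9% of its 7505 exonic bases with other genes of the tables, in which reads are left uncounted by the counter's default, so its level rests on the rest of its exons. Of the genes that share them, ENSG00000285897, which covers 57.6% of the exonic bases, held 3 to 31 counts in HCT116 libraries and 1 to 7 in DNMT1 KO. SUPT4H1, which covers 1.91%, held 316 counts in DNMT1 KO replicate 4 and 0 to 27 in every other library. ZNRF3 (chr22:28883572-29057488) was at 48.3, 41.8, 33.6 and 45.0 CPM in DNMT1 KO. In HCT116 it lay between 25.5 and 38.6 CPM with a median of 35.0 CPM, so the groups overlapped through DNMT1 KO replicate 3. Its log2 change was 0.36 (SE 0.21, adjusted p = 0.30, edgeR), with an interval of ±2 SE from -0.07 to 0.79. LGR5 (chr12:71439798-71586310), the R-spondin receptor that marks crypt stem cells and holds RNF43 and ZNRF3 in check, was close to absent. It had 4, 4, 24 and 6 counts in DNMT1 KO and 0 to 6 in HCT116 libraries. Pooled over libraries these were 0.203 CPM (95% exact Poisson interval 0.143 to 0.278) and 0.0416 CPM (0.0227 to 0.0698). DNMT1 KO replicate 3 held 24 of the 38 DNMT1 KO counts, the groups overlapped, and the gene fell under the filter of the main fit. In the fit with no filter LGR5 was tested and not called.

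Of the transcription factors, SP5 (chr2:170715337-170718078), a direct target that represses other Wnt targets, showed the largest rise of the 7 tested members. It was at 15.0, 15.7, 5.02 and 14.1 CPM in DNMT1 KO and from 0.589 to 3.34 CPM, median 0.883 CPM, in HCT116. All DNMT1 KO libraries were above all HCT116 libraries, although DNMT1 KO replicate 3 lay well under the other 3 and HCT116 replicate 1 was the highest of its line. The log2 change was 3.21 (SE 0.49, adjusted p = 0.00026, edgeR), or 9.25-fold. In batch 1 the log2 ratio of the 2 libraries was 2.17, and within batch 2 alone the change was 3.66 (adjusted p = 0.018). TCF7 (chr5:134114681-134151865), one of the TCF/LEF factors that carry β-catenin to DNA, was at 52.5, 74.1, 40.1 and 60.8 CPM in DNMT1 KO and from 26.7 to 71.0 CPM, median 44.3 CPM, in HCT116. The groups overlapped and the log2 change of 0.28 (SE 0.27) did not pass (adjusted p = 0.55, edgeR), with an interval of ±2 SE from -0.26 to 0.83. LEF1 (chr4:108047545-108168956), its relative, held 2 counts in HCT116, all in replicate 8, and 0 in DNMT1 KO, which allows a pooled level of up to 0.0160 CPM (3 counts). ASCL2 (chr11:2268498-2270588), the stem cell factor of the crypt, held 4 counts in HCT116, 2 each in replicates 1 and 8, and 0 in DNMT1 KO. A difference in LEF1 or ASCL2 was not detectable at this depth.

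EPHB2 (chr1:22710839-22921500), the receptor kinase that keeps crypt cells ordered along the base, was lower in DNMT1 KO in the means but its call depended on the batch. DNMT1 KO libraries were at 22.8, 27.3, 29.2 and 14.6 CPM, and HCT116 ran from 19.5 to 81.7 CPM with a median of 41.9 CPM. The groups overlapped through HCT116 replicate 9, the lowest of its line. The log2 change was -0.97 (SE 0.36, adjusted p = 0.083, edgeR) over all libraries. A fit that included batch gave -1.22 (adjusted p = 0.0069), and the same fit on batches 1 and 2 also gave -1.22 (adjusted p = 0.010). Both were called, but both compare the lines on the libraries of batches 1 and 2, so they are not separate results. The fit without HCT116 replicate 9 gave -1.12 (adjusted p = 0.026, edgeR) and was called. Leaving out any other single library gave no pass (adjusted p from 0.076 to 0.23, edgeR). In batch 1 the log2 ratio was -1.02, and within batch 2 alone the change was -1.31 (adjusted p = 0.054).

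**Figure D2:**
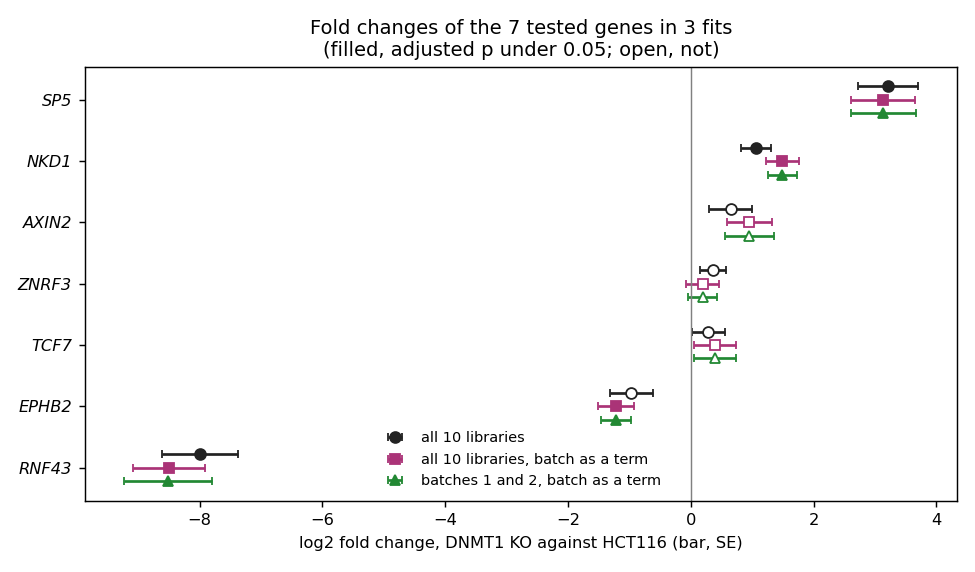
Log2 fold changes of the 7 tested genes with SE bars in 3 fits, filled markers for an adjusted p under 0.05 and open markers for the rest. SP5, NKD1 and RNF43 are filled in all 3 fits, EPHB2 is filled in the 2 with a batch term, and AXIN2, ZNRF3 and TCF7 are open throughout.

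The members also varied within HCT116. Batch 4 was set against batches 1 and 2 (3 libraries each), a comparison with 3.09% and 4.94% of 18656 genes called higher and lower. No member was called. EPHB2 was the nearest, at -1.10 on the log2 scale (SE 0.34, adjusted p = 0.061, edgeR), and the other 6 lay between -0.67 (SP5) and 0.68 (AXIN2). At an unadjusted p under 0.05 the count of members was 1 (EPHB2), and DESeq2 called 1 (EPHB2). Without HCT116 replicate 1, AXIN2 was called higher in batch 4 (1.16, adjusted p = 0.033) and EPHB2 lower (-1.27, adjusted p = 0.013), and the calls over all genes went to 1800 higher and 1770 lower. The epithelial cadherin CDH1 moved with EPHB2 across these batches, at 155 to 298 CPM in batches 1 and 2 and 32.4 to 64.2 CPM in batch 4, and its part in the EPHB2 values was not tested. Within DNMT1 KO, replicate 3 was the lowest of the 4 libraries for AXIN2, ZNRF3, TCF7 and SP5, and replicate 2 the highest for NKD1, RNF43, TCF7 and SP5.

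The order of the levels was read per kilobase of exon. In HCT116, RNF43 was the highest at 5.82 ± 1.63 CPM per kb (SD, n = 6), followed by ZNRF3 (4.72 ± 0.85), TCF7 (4.63 ± 1.53), EPHB2 (3.67 ± 1.76), AXIN2 (1.72 ± 0.69), NKD1 (1.25 ± 0.34) and SP5 (0.66 ± 0.51). All neighbours in this run overlapped in their libraries and so did not differ beyond their spread. For RNF43 this depended on the length used: on exonic bases that no other gene shares, an alternative added after seeing the data, its level was 22.3 ± 6.26 CPM per kb, and its lowest library (16.9) lay above the highest of TCF7 (7.19), then the next gene. ASCL2, LGR5 and LEF1 followed at means under 0.01 CPM per kb, with no overlap between SP5 and ASCL2. In DNMT1 KO (n = 4), ZNRF3 (6.05 ± 0.90), SP5 (6.05 ± 2.43) and TCF7 (5.64 ± 1.42) led and overlapped, and AXIN2 (2.70 ± 0.97), NKD1 (2.62 ± 0.45) and EPHB2 (1.88 ± 0.52) followed. These 3 did not overlap with TCF7 (AXIN2 did on unshared exonic bases), but AXIN2 and NKD1 overlapped with SP5, whose libraries ran from 2.43 to 7.63. SP5 moved from seventh to second and RNF43 from first to eighth, next to LGR5.

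**Figure D3:**
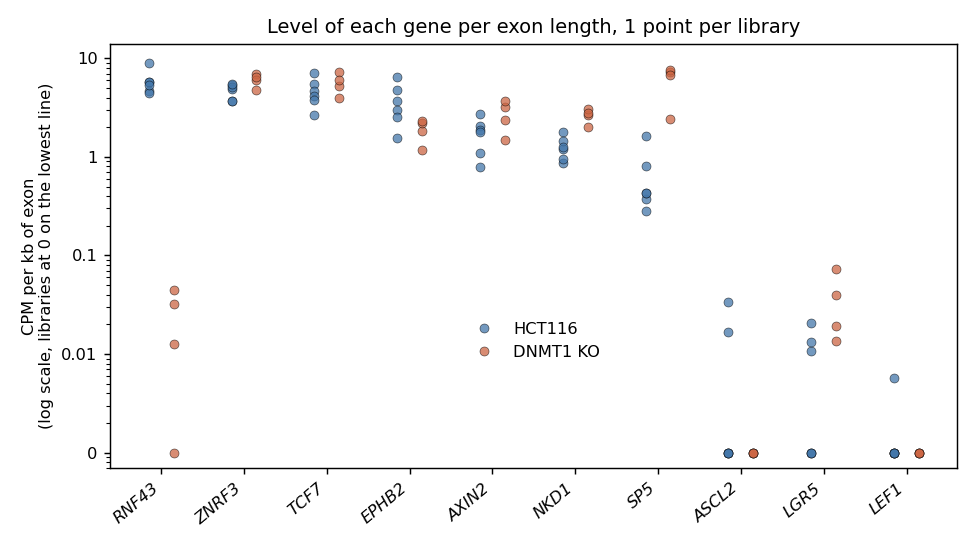
Level of each of the 10 genes in CPM per kb of exon on a log axis, 1 point per library, genes ordered by their HCT116 mean and libraries at 0 drawn on the lowest line. RNF43 leads in HCT116 and falls to the range of LGR5 in DNMT1 KO, while SP5 joins ZNRF3 and TCF7.

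The rest of the pathway was read from lists of other targets, receptors, ligands and transducers, beside the 7.42% of all tested genes called higher and the 6.49% called lower. A fit that included batch, added for these lists after seeing the data, called 8.42% higher and 7.74% lower over all genes. The lists were chosen with earlier results of these data known. PROM1, MMP7, FZD8 and WNT3A had few or no counts in DNMT1 KO and passed the filter through HCT116. The filter thus partly sets how many list genes were called lower, and no result is drawn from those shares. Of 24 other Wnt target and stem cell genes, 19 were tested, 1 was called higher (5.26%) and 8 lower (42.1%), with a median log2 change of -0.46. With batch in the fit 2 were called higher (TNFRSF19 was added) and 9 lower (FERMT1 was added). NOTUM, a secreted enzyme that inactivates Wnt ligands, rose from 9.55 ± 3.72 CPM (SD, n = 6) to 109 ± 48.2 CPM (SD, n = 4), a log2 change of 3.51 (SE 0.35, adjusted p = 4.99e-06, edgeR). Its lowest DNMT1 KO library, at 66.4 CPM, was above its highest HCT116 library at 14.6 CPM. The stem cell surface gene PROM1 fell from 25.3 ± 5.55 to 0.0533 ± 0.0535 CPM, and CD44, a crypt-base adhesion receptor, from 853 ± 363 to 90.0 ± 19.2 CPM (log2 changes of -8.64 and -3.24). MMP7, a secreted protease, held 273 counts in HCT116 and 0 in DNMT1 KO, at least 50.7-fold lower by a floor of 3 counts over the group. MYC (log2 change of 0.23, adjusted p = 0.58) and CCND1 (-0.46, adjusted p = 0.31) did not pass.

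Among the 17 receptor genes, 16 were tested and 2 were called in each direction (12.5%). With batch in the fit 3 were called higher (FZD3 was added) and 2 lower. LGR4, another R-spondin receptor, rose from 10.9 ± 2.45 to 43.3 ± 9.52 CPM (log2 change of 2.00, SE 0.24, adjusted p = 3.12e-05, edgeR), and FZD9, a Frizzled receptor, by 1.94 on the log2 scale (SE 0.43, adjusted p = 0.0052). ROR1, a receptor for Wnt ligands outside the β-catenin branch, fell by 3.06 on the log2 scale (SE 0.35, adjusted p = 2.21e-05). FZD8 held 135 counts in HCT116 and 0 in DNMT1 KO, at least 25.1-fold lower by the same floor. The median over the 16 was 0.21.

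Ligands moved in both directions. Of 25 genes, 18 were tested, 4 were called higher (22.2%) and 3 lower (16.7%), with a median log2 change of 0.23. With batch in the fit 5 were called higher (WNT2 was added) and 5 lower (WNT7A and WNT9A were added). WNT2 held 46 counts in HCT116 and 44 in DNMT1 KO, so its call rests on few counts. Its log2 change was 6.47 with batch in the fit and 1.02 without (adjusted p = 0.50, edgeR). WNT11, RSPO4 and WLS, the carrier that brings Wnt ligands to the cell surface, were called higher at 2.76, 2.71 and 2.51. WLS was the most abundant of these, rising from 60.6 ± 25.0 to 344 ± 71.2 CPM. WNT16 fell from 251 ± 101 to 16.9 ± 7.94 CPM (log2 change of -3.89, SE 0.42, adjusted p = 1.03e-05, edgeR), and WNT7B fell by 1.47 on the log2 scale (SE 0.46, adjusted p = 0.041). WNT3A held 1387 counts in HCT116 and 2 in DNMT1 KO, a 387-fold ratio with a 95% counting interval from 107 to 3197.

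Of 21 transducers, 20 were tested, 1 was called higher and 1 lower (5.0% each, under the share over all genes), with a median of 0.26. With batch in the fit 1 was called higher and 2 lower (BCL9L was added). PYGO1, a cofactor of nuclear β-catenin, rose by 3.75 on the log2 scale (SE 0.40, adjusted p = 9.46e-06, edgeR), and the corepressor TLE1 fell by 1.11 (SE 0.29, adjusted p = 0.017). CTNNB1, the β-catenin gene itself, was at 440 ± 86.5 and 659 ± 116 CPM and did not pass (log2 change of 0.58, adjusted p = 0.0997).

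**Figure D4:**
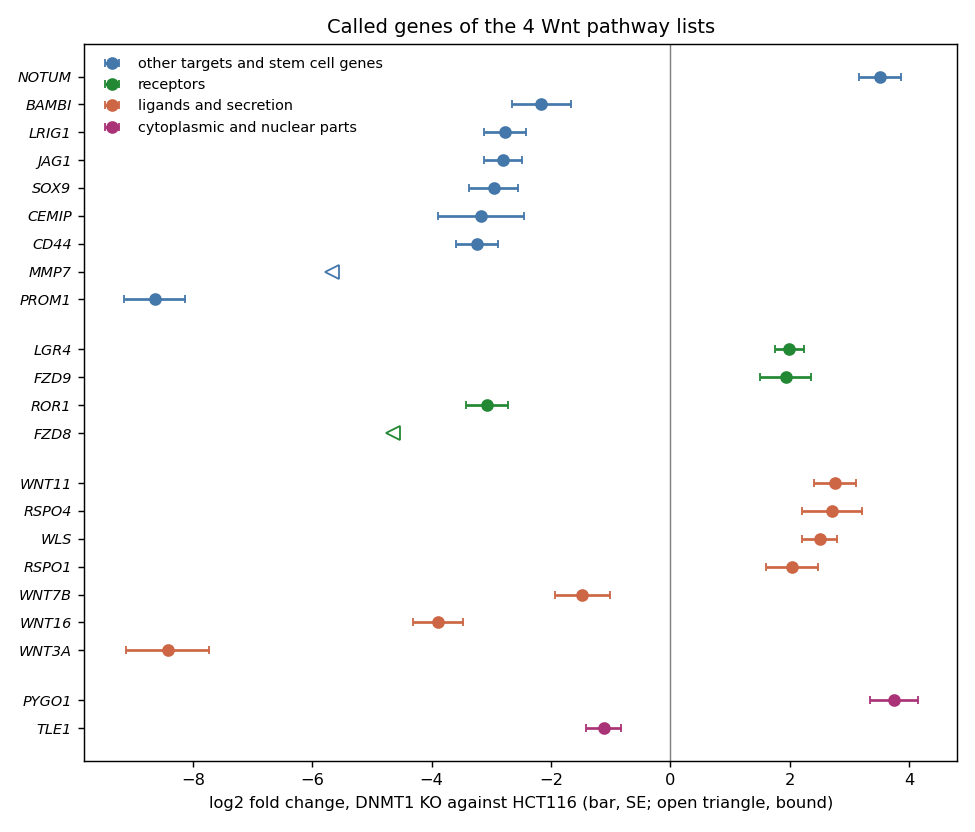
Log2 fold changes with SE bars of the called genes in the 4 Wnt pathway lists, DNMT1 KO against HCT116, with open triangles at the bound for genes without counts in DNMT1 KO. NOTUM, LGR4, WLS and PYGO1 lie to the right of 0 and PROM1, CD44, WNT3A and WNT16 to the left.

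Markers of other cell types and of the mature colon were given beside these values, and their part in the results was not tested. Of 8 epithelial markers, 7 were tested, 4 were called lower and 1 higher, VIL1, which held 4 counts in HCT116 and 117 in DNMT1 KO, and with batch in the fit 5 were called lower (KRT19 was added). Their summed level ran from 2520 to 6130 CPM in HCT116 and from 645 to 1431 CPM in DNMT1 KO. Of 12 colonocyte markers, CA2 alone was tested and did not pass (log2 change of 0.17, adjusted p = 0.79), and KRT20, CEACAM7, GUCA2A and FABP1 held no count in any library. CA4 held 0 counts in HCT116 and 58 in DNMT1 KO, at least 34.7-fold higher by the floor, and AQP8 stayed at or under 0.107 CPM in every library. Fibroblast markers summed to 6.47 to 19.8 CPM in HCT116 and 16.6 to 21.4 CPM in DNMT1 KO, with LUM, COL3A1 and PDGFRB called higher and 0 lower of 4 tested. COL1A1 went the other way, from 12.5 ± 4.27 to 6.72 ± 5.06 CPM, and was not called (log2 change of -0.90, adjusted p = 0.18, edgeR). It ran from 6.16 to 19.5 CPM in HCT116, nearly all of the summed level there. LUM held 2 counts in HCT116 and 365 in DNMT1 KO, a 327-fold ratio with a 95% counting interval from 90.0 to 2713, and COL1A2 and DCN were at 0 in HCT116 and held 12 and 21 counts in DNMT1 KO. Endothelial markers summed to at most 1.80 and 6.11 CPM, with PECAM1 and VWF called higher of 3 tested. Over all genes tested 7.42% were called higher and 6.49% lower. LUM, COL3A1, VIL1 and PECAM1 had few counts in HCT116 and passed the filter through DNMT1 KO. The filter thus partly sets how many tested markers were called higher, and no result is drawn from those counts. The pan-leukocyte gene PTPRC held 2 counts in each line.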

How the data were processed

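Per the labels and the study's methods, the authors made stranded mRNA libraries, trimmed paired reads with TrimGalore, aligned to hg38 with bowtie2 (no spliced alignment), filtered on mapping quality and counted exonic reads per gene with featureCounts. The deposited values were raw counts, with no normalisation. The 3 deposited tables of HCT116 replicates 4 to 6 were not used, as no sample in the list names them. Members and gene lists were chosen with earlier results of these data known. The named genes of each other list were the called genes with the largest rise and fall, up to 3 in each direction, or the most abundant where none was called. Named outside this rule, after their values were seen, were EPCAM, CDX2, MYC, CCND1, CTNNB1, KRT20, CEACAM7, GUCA2A and FABP1. So were COL1A1, COL1A2, DCN, PTPRC and the genes added by a batch term.

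The analysis used edgeR 4.0.16 in R 4.3.3 (TMM, filterByExpr, quasi-likelihood test, two-sided), with p-values adjusted by Benjamini-Hochberg over all tested genes. SE was |log2 change|/√F. DESeq2 1.42.0 was an alternative. The fit was tested on simulated data. A pair of mates may have been counted as 2, so intervals and floors (95%, 3 counts) cover counting error only and may be too narrow. The summed level and calls of the immune marker list are not reported here.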

Additional observations from a re-analysis of the deposited data

Results flagged for a closer look

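Within the groups, 3 of 18 sets of library values had 1 library far from the others, and chance flags about 1 in 20. RNF43 was highest in HCT116 replicate 3, at 67.1 CPM, and its lowest HCT116 library was 33.2 CPM. SP5 was lowest in DNMT1 KO replicate 3, at 5.02 CPM against 14.1 to 15.7 CPM in the other libraries of that line. LEF1 was at 0.031 CPM in HCT116 replicate 8, which is 2 counts, and at 0 elsewhere. Leaving out the first or second of these libraries kept the calls of RNF43 and SP5.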

How the results depend on the processing

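Each tested member was refitted under up to 22 alternatives. SP5, NKD1 and RNF43 kept their direction and an adjusted p under 0.05 in all that could test them, with log2 changes of 2.85 to 3.72, 0.98 to 1.498 and -8.70 to -7.59. AXIN2, ZNRF3 and TCF7 passed in none. EPHB2 passed in 6. A batch term gave -1.22 over all libraries and over batches 1 and 2. The replicate block gave -1.20, and replicates 1 to 3 with no replicate block gave -1.24. All of these compare the lines on the libraries of batches 1 and 2, so they are not separate results. The other passes were with no filter (-0.99) and without HCT116 replicate 9 (leave-one-out range -1.12 to -0.69). With at least 10 counts in every library RNF43 could not be tested, so 0 members were called lower, and 734 genes were called higher and 766 lower. Members called lower were 2 with the batch term, with batches 1 and 2, with the replicate block, with replicates 1 to 3 and in the leave-one-out fit without HCT116 replicate 9 (range 1 to 2). Members called higher ranged from 1 to 2. Batch 2 alone called 815 genes higher and 798 lower. Same-numbered libraries of the 2 lines share a batch for replicates 1 to 3. Their correlations were mixed (0.547, -0.266 and 0.375), which cannot settle whether replicate numbers pair the samples. The alternatives with replicates 1 to 3 and no block and with unshared exonic bases were chosen after seeing the data. Ranks by level were the same with library totals alone, and 8 of 10 were kept in each line with unshared exonic bases, where RNF43 led in HCT116 at 22.3 in place of 5.82 CPM per kb and no longer overlapped the next gene. A batch term, also added after seeing the data, moved the calls of the other targets from 1 to 2 higher, of the ligands from 3 to 5 lower and of the transducers from 1 to 2 lower.

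Between HCT116 batches, no filter called 1280 genes higher, DESeq2 1079 higher and 1388 lower, and leaving out single libraries 46 to 1800 higher and 187 to 1770 lower. The members called there were 1 lower with no filter or DESeq2, and without HCT116 replicate 1, 1 higher and 1 lower (ranges 0 to 1). TCF7 reversed in leave-one-out fits (-0.15 to 0.43) and SP5 too (-1.18 to 0.34). Few counts limit LGR5, ASCL2 and LEF1.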
